A study of Mus musculus with 72 samples.

Results

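Yipf6, Igbp1, Taf1 and Pin4 are X-linked genes that lie within a few megabases of each other on the centromeric side of the Xist locus in mouse. They were selected on measured values, namely large differences between SmcHD1 knockout (KO) and wild-type (WT) cells at day 15 of differentiation and later, so late differences in inactive-X share and in total RNA are described here without a test. The 4 genes are members of a set of 22556 genes counted in the series, 908 of them X-linked, and all 4 were in both lists of genes with usable allelic counts, which held 246 genes for the iXist-ChrX_Dom line and 399 for the iXist-ChrX_Cast line (235 in both). Allelic chromatin-associated RNA sequencing (ChrRNA-seq), which reads RNA still bound to chromatin and is rich in newly made, unspliced transcripts, was carried out on 72 libraries, counted as 65 replicates. Both lines are female F1 mouse embryonic stem cells (mESCs) of a 129 by CAST/EiJ cross, in which a TetOn promoter drives Xist after doxycycline is added, on the domesticus (Dom, 129) X in iXist-ChrX_Dom and on the castaneus (Cast) X in iXist-ChrX_Cast. Cells were kept in doxycycline while they were differentiated towards neural precursor cells (NPCs). The SmcHD1 KO clone of iXist-ChrX_Dom was A3, and iXist-ChrX_Cast gave both D5 and G6. Each is a single CRISPR clone, so an effect of the knockout and a property of the clone cannot be told apart within iXist-ChrX_Dom. WT and A3 were sampled with 2 replicates per day at days 2, 3, 5 and 7, and with a single one at days 15, 21, 35 and 52 each. WT of iXist-ChrX_Cast had 2 or 3 replicates and D5 and G6 had 2 each at days 2 to 7, with 1 of each at days 15, 21 and 35. Uninduced mESCs (ES) were sequenced for KO clones alone, with 2 replicates of A3, 2 of D5 and 1 of G6.

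In X inactivation, Xist RNA coats the chromosome it is transcribed from and brings silencing factors that switch off most genes in cis. SmcHD1 is a chromosomal protein of the SMC family that joins the inactive X (Xi) late, after the first silencing steps, and is known for CpG island methylation and long-range folding of the Xi. Yipf6 encodes a Golgi membrane protein of the YIP1 family. Igbp1 encodes alpha4, which binds the catalytic subunits of the PP2A family of phosphatases. Taf1 encodes the largest subunit of TFIID, the general transcription factor that recognises core promoters, and Pin4 encodes a parvulin, a peptidyl-prolyl isomerase.

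All 4 genes are transcribed from the plus strand of the X chromosome (mm10 coordinates of the count files). Yipf6 spans chrX:98937780-98949020, Igbp1 chrX:100494290-100516125, Taf1 chrX:101532734-101601789 and Pin4 chrX:102119464-102127673. The nearest end of Xist lies 4511352 bases past the end of Yipf6 and 1332699 bases past the end of Pin4. No other counted gene overlapped any of the 4. Fragments were counted over the whole transcript, introns included, and annotated protein-coding exons (GENCODE, GRCm38) made up 63.6% of the Yipf6 span, 26.2% of Igbp1, 12.4% of Taf1 and 7.93% of Pin4.

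The promoters of the 4 genes are shown from 250 bases before to 50 bases after the RefSeq start (GRCm38.p6, plus strand). Each CG dinucleotide, the site of DNA methylation, is in capitals. The promoters lie at chrX:98937531-98937830 for Yipf6, chrX:100494041-100494340 for Igbp1, chrX:101532485-101532784 for Taf1 and chrX:102119219-102119518 for Pin4.
Yipf6: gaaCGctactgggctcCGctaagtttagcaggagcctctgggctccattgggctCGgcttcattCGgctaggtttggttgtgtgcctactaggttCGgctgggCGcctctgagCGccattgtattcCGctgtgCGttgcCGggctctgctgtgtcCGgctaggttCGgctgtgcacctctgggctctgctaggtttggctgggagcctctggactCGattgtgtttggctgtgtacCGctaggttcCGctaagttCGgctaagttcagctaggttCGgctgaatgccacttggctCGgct
Igbp1: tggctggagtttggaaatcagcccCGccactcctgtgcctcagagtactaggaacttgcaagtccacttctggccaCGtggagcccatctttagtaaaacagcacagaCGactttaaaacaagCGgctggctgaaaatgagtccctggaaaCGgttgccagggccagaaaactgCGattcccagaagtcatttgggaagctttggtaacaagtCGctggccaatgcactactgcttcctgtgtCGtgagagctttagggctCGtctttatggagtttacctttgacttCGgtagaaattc
Taf1: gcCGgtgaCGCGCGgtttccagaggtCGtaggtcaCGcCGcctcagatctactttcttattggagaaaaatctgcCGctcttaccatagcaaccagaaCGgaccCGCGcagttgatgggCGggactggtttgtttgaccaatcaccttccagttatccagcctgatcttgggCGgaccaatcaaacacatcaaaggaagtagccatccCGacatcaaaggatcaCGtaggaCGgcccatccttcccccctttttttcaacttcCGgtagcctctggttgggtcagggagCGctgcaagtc
Pin4: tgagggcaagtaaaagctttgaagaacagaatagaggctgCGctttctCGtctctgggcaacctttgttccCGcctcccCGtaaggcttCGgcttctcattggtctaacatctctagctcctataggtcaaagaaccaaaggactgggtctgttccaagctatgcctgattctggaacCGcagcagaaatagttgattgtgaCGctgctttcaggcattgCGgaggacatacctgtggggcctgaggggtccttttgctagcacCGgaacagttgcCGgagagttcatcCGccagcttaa
Yipf6 and Taf1 held 18 CG dinucleotides each, Pin4 held 11 and Igbp1 held 10, against a median of 7 over 32841 promoters of this length. In percentiles of all promoters these counts were 70.3 for Yipf6 and Taf1, 58.6 for Pin4 and 56.5 for Igbp1, not far from the middle. Of the short motifs searched on both strands, CCAAT was present in all 4 promoters (3 times in Taf1, once in each of the others) and in 37.4% of all promoters. TATAAA was present in none of the 4 and in 13.6% of all. GGGCGG was found only in the Taf1 promoter among the 4 (2 times) and in 35.7% of all. CCGGAAG was likewise found only in the Taf1 promoter, once, and in 8.86% of all. AAGATGG was found only in the Igbp1 promoter and in 6.34% of all. No methylation or binding data were analysed here.

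Libraries held 9344054 to 31216487 fragments in genes. The allelic ratio, Xi/(Xi+Xa), is the share of allele-assigned fragments from the chromosome that carries inducible Xist, where Xa is the active X. It rested on a median of 560 allelic fragments per replicate for Yipf6, 766 for Igbp1, 928 for Taf1 and 59 for Pin4, and the median half-width of its 95% Wilson interval was 0.0281, 0.0265, 0.0262 and 0.0921, respectively. These intervals cover counting error only. Pin4 had 22 to 150 allelic fragments per replicate, so its single values are imprecise. The targeted gene Smchd1 was still read in every KO replicate (217 to 616 RPM, against 360 to 709 RPM in WT), and its RNA level therefore does not check the knockout. RPM values are scaled to the total of fragments in genes of each library. Xist was 131 to 1009 RPM in uninduced clones and 3902 to 86546 RPM after induction. At days 5 and 7 it was 13879 to 16192 RPM in D5, against 15676 to 35184 RPM in WT and 18978 to 32716 RPM in G6. The summed level of 6 ES markers (Pou5f1, Nanog, Zfp42, Klf4, Esrrb and Klf2) was 810 to 1233 RPM in uninduced clones and 3.57 to 143 RPM at late days. That of 6 neural precursor markers (Nes, Vim, Pax6, Sox1, Fabp7 and Olig2) was 129 to 914 RPM at late days, with Sox1 at 0 in every group. Late neuron markers (Tubb3, Dcx, Rbfox3 and Snap25) summed to 8.83 to 187 RPM and astroglia markers (Gfap, Aqp4 and Aldh1l1) to 0.667 to 22.4 RPM. Summed markers of fibroblasts (Col1a1, Col1a2, Col3a1, Dcn and Thy1) were 224 to 7742 RPM in late WT and 756 to 15048 RPM in late KO, and their part in the late values was not tested. In the WT of iXist-ChrX_Dom, the median Cast share of genes past 140 Mb of chromosome 6 was 0.0607 to 0.178 at days 21, 35 and 52 against 0.494 at day 15, and it was 0.477 to 0.49 in late A3. These WT libraries thus differed from the day 15 library in more than the day. In all 3 KO clones the day 15 library also carried another replicate number than the libraries of later days.

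Before Xist induction both alleles of all 4 genes were read. The Dom share in A3 was 0.5 and 0.502 for Yipf6 and 0.494 and 0.512 for Igbp1, near equal use of the alleles. Taf1 was skewed to the Cast allele in both lines, with a Dom share of 0.336 and 0.349 in A3 and a Cast share of 0.6 and 0.601 in D5 and 0.595 in G6. Pin4 was skewed the other way, with a Dom share of 0.6 and 0.61 in A3 and a Cast share of 0.433 and 0.404 in D5 and 0.354 in G6. A ratio of Taf1 or Pin4 is therefore best read against its own starting value, which was 0.342 and 0.605 in iXist-ChrX_Dom and 0.598 and 0.386 in iXist-ChrX_Cast.

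**Figure D1:**
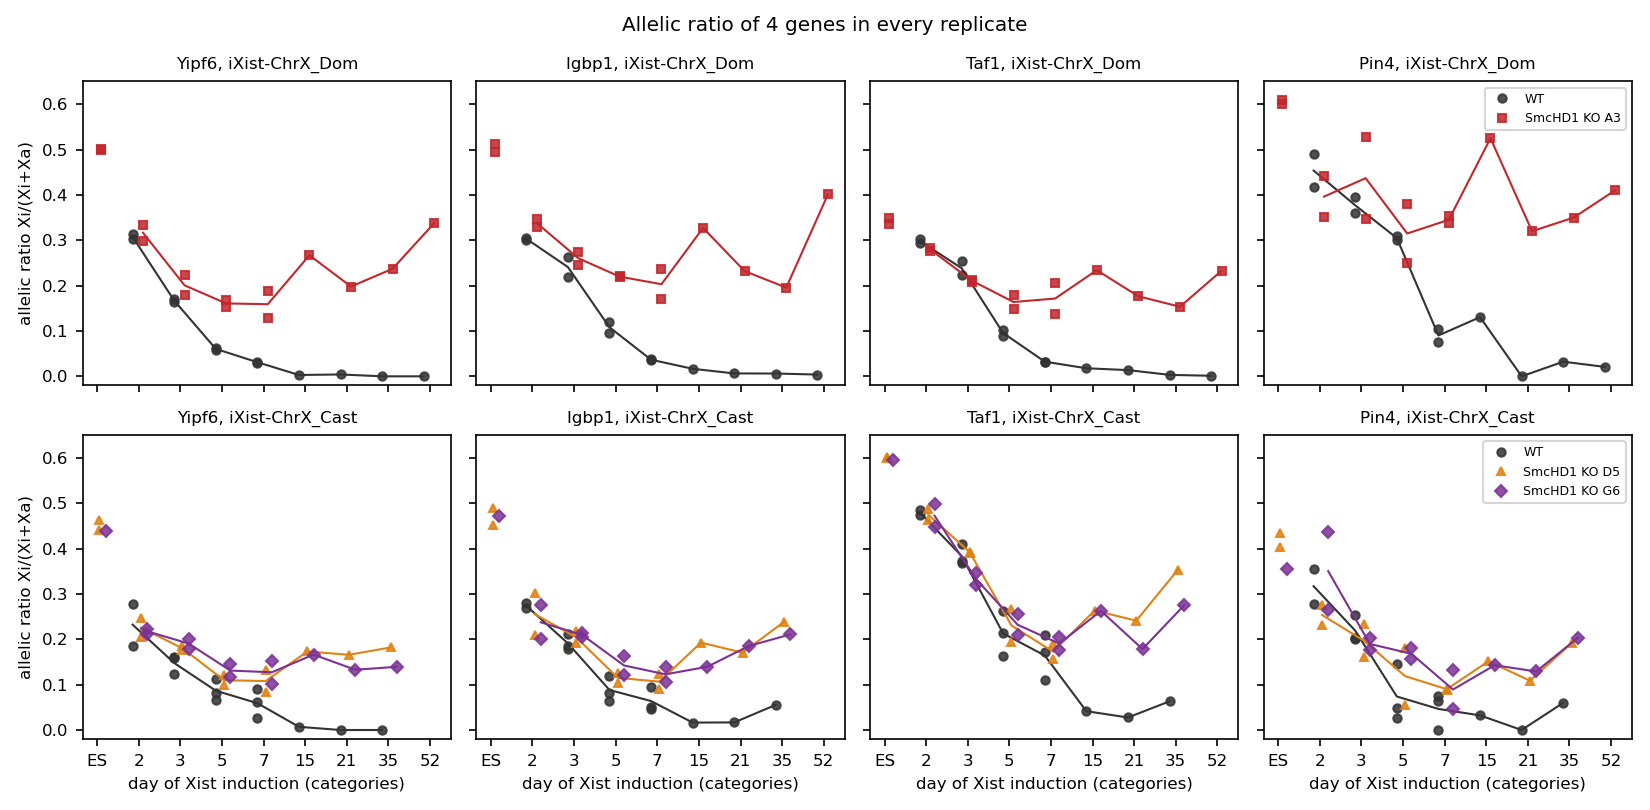
Allelic ratio Xi/(Xi+Xa) of Yipf6, Igbp1, Taf1 and Pin4 by day of Xist induction, shown as evenly spaced categories (ES, uninduced), in iXist-ChrX_Dom (top) and iXist-ChrX_Cast (bottom). Each point is 1 replicate and lines join the means of WT (black) and of SmcHD1 KO clones A3 (red), D5 (orange) and G6 (purple). WT and A3 part between days 3 and 7, and A3 lies at 0.153 or higher from day 15 for every gene.

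Over days 2 and 3 of Xist RNA expression, no difference in the ratios of the 4 genes between genotypes was detected by test. In iXist-ChrX_Dom, Yipf6 had ratios of 0.313 and 0.302 in WT and 0.334 and 0.299 in A3 at day 2, and of 0.163 and 0.171 against 0.223 and 0.178 at day 3. The A3 values thus overlapped WT at day 2 and lay just above it at day 3. Igbp1 had ratios of 0.264 and 0.218 in WT and 0.275 and 0.246 in A3 at day 3, which overlapped. Taf1 was at 0.253 and 0.224 in WT at day 3 and lower, at 0.213 and 0.208, in A3. With limma across the 246 genes, the KO minus WT difference over days 2 and 3 was 0.0212 ± 0.0206 (SE) for Yipf6, 0.0271 ± 0.0204 for Igbp1, -0.0232 ± 0.0185 for Taf1 and 0.00125 ± 0.0462 for Pin4, with adjusted p of 0.957 or more. None of the 4 passed, and 0% of all genes did (0 by limma and 0 by edgeR on allelic counts, with 15 at an unadjusted p below 0.05 by limma). All replicates of A3 lay above all WT replicates for 1 of the 4 genes at day 2 (Igbp1, against 18.3% of all genes) and for 1 at day 3 (Yipf6, against 6.1%).

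In iXist-ChrX_Cast the differences over days 2 and 3 were 0.0165 ± 0.0174 (SE) for Yipf6, -0.00307 ± 0.0187 for Igbp1, -0.0146 ± 0.016 for Taf1 and -0.0208 ± 0.0301 for Pin4, with limma adjusted p of 0.75 to 0.977. No member passed, and 0% of the 399 genes did (0 by limma and 0 by edgeR on allelic counts, with 32 at an unadjusted p below 0.05 by limma). The KO replicates lay above all WT replicates for none of the 4 genes at day 2, against 0.501% of all genes. At day 3 this held for Yipf6, at 0.176 and 0.184 in D5 and 0.202 and 0.179 in G6 against 0.123, 0.159 and 0.161 in WT, and for 2.51% of all genes.

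At days 5 and 7, silencing of Yipf6, Igbp1 and Taf1 fell behind in A3. Yipf6, the YIP1 family gene, was at 0.0627 and 0.0583 in WT and 0.168 and 0.153 in A3 at day 5, and at 0.0322 and 0.03 in WT and 0.129 and 0.189 in A3 at day 7. Every A3 replicate was above every WT replicate on both days. Igbp1 was at 0.12 and 0.0966 in WT and 0.219 and 0.22 in A3 at day 5, and at 0.0373 and 0.036 against 0.17 and 0.236 at day 7. These groups did not overlap either, and Igbp1 showed the largest difference of the 246 genes. Taf1 was at 0.102 and 0.0893 in WT and 0.148 and 0.18 in A3 at day 5, and at 0.0321 and 0.0326 against 0.138 and 0.205 at day 7. Its groups were again apart on both days. Pin4 was at 0.31 and 0.3 in WT and 0.25 and 0.38 in A3 at day 5, where the groups overlapped, and at 0.105 and 0.075 against 0.353 and 0.337 at day 7, where they did not.

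With limma over both days, KO minus WT was 0.114 ± 0.0158 (SE) for Yipf6 and 0.139 ± 0.0195 for Igbp1, each with an adjusted p of 0.0102. It was 0.104 ± 0.0216 for Taf1 with an adjusted p of 0.0336. For Pin4 the estimate was as large, 0.133, but with an SE of 0.0535 and an adjusted p of 0.228. Of the 4 genes 3 passed, all higher in A3, against 18 of 246 genes (7.32%) tested, which were all higher in A3 too. The 4 estimates ranked 1 (Igbp1), 2 (Pin4), 3 (Yipf6) and 7 (Taf1) of the 246, whose median was 0.00581. The groups were apart for 3 of the 4 genes at day 5, against 24% of all genes, and for 4 of 4 at day 7, against 45.5%. The early calls rest on 8 replicates. Yipf6 and Igbp1 had adjusted p of 0.0556 without WT replicate 2 of day 5 and of 0.0692 without WT replicate 1 of day 7, and Taf1 missed the threshold in 6 of 8 such fits, with adjusted p of up to 0.135. The estimates themselves stayed between 0.0831 and 0.149 for these 3 genes.

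**Figure D2:**
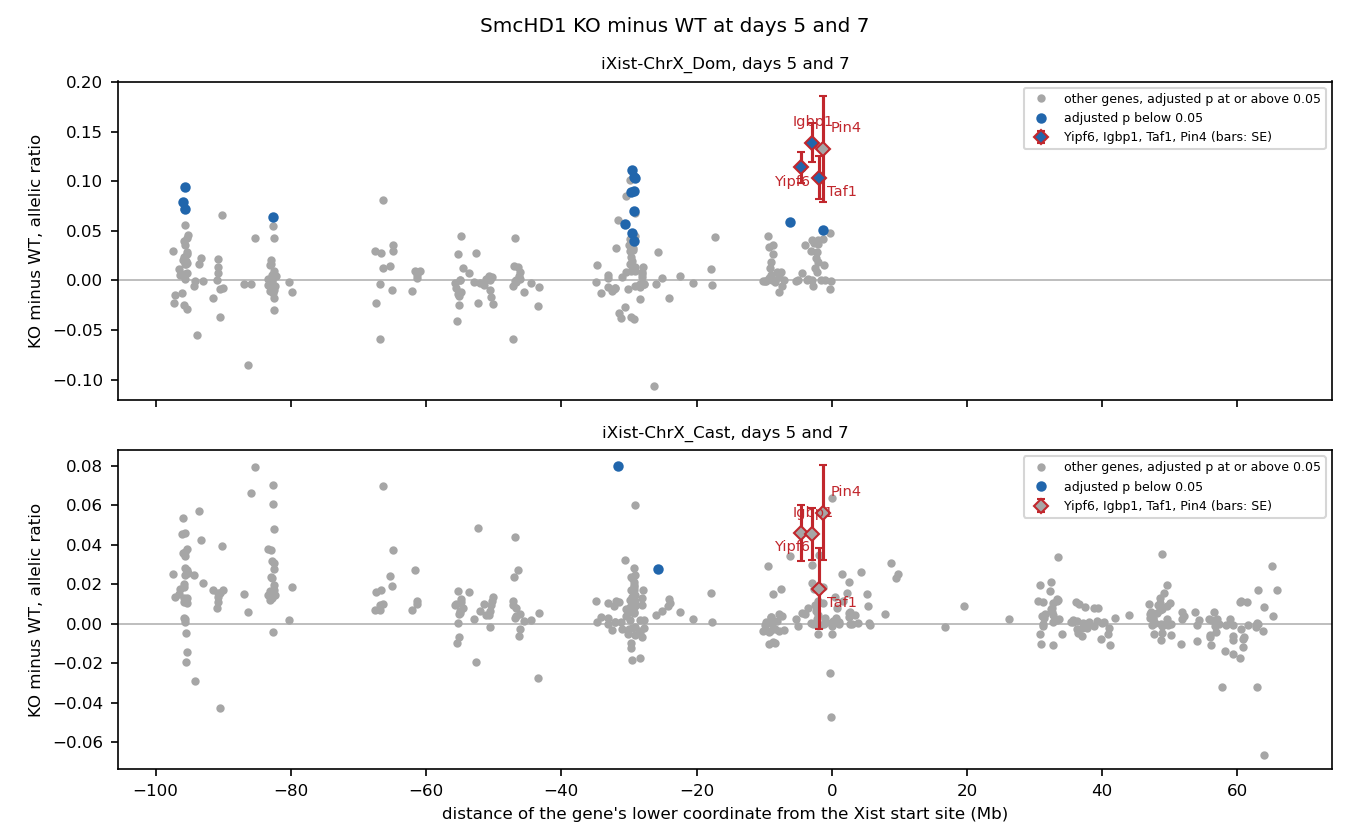
SmcHD1 KO minus WT difference in allelic ratio at days 5 and 7 for each gene of iXist-ChrX_Dom (246 genes, top) and iXist-ChrX_Cast (399 genes, bottom), plotted by distance from the Xist start site in Mb, with the vertical axes scaled separately. Blue marks genes with an adjusted p below 0.05, and red-edged diamonds with SE bars mark Yipf6, Igbp1, Taf1 and Pin4, whose values span 0.104 to 0.139 (top) and 0.0178 to 0.0563 (bottom).

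In iXist-ChrX_Cast the gap at days 5 and 7 was smaller. Yipf6 at day 7 was at 0.0266, 0.061 and 0.0898 in WT, at 0.131 and 0.0847 in D5 and at 0.102 and 0.152 in G6, so that 1 D5 replicate lay within the WT range. Igbp1 at day 7 was at 0.051, 0.0467 and 0.0940 in WT, at 0.123 and 0.0903 in D5 and at 0.106 and 0.14 in G6, with the same overlap. Taf1 at day 7 was at 0.11, 0.173 and 0.21 in WT, at 0.156 and 0.189 in D5 and at 0.176 and 0.205 in G6, within the WT range throughout. The WT of this line had thus silenced Taf1 less by day 7 than the WT of iXist-ChrX_Dom (27.5% against 9.45% of the uninduced ratio, as means). With limma, KO minus WT was 0.0461 ± 0.0141 (SE) for Yipf6 (adjusted p = 0.0953), 0.0456 ± 0.0132 for Igbp1 (0.0864), 0.0178 ± 0.0206 for Taf1 (0.666) and 0.0563 ± 0.0242 for Pin4 (0.265). No member passed, against 2 of 399 genes (0.501%), both higher in KO. The groups were apart for none of the 4 genes at day 5, against 4.76% of all genes, or at day 7, against 11%. At days 3, 5 and 7 each KO clone had 2 libraries, R1 and R2, under 1 replicate number. They were averaged here, but the number of time courses the study gives for these days is reached only if R1 and R2 are separate. With both counted as replicates no member passed the limma test either (adjusted p of 0.118 or more). For each of Yipf6, Igbp1 and Taf1, R2 was above R1 in 6 of 6 such pairs, for example 0.151 against 0.112 for Yipf6 in D5 at day 7, and the part of this difference in the KO values was not tested. In the only later pair, G6 at day 35, R2 was the lower for all 3 genes (0.109 against 0.17 for Yipf6).

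The KO minus WT difference was larger at days 5 and 7 than at days 2 and 3 for all 4 genes in both lines, but this change passed the test for Taf1 in iXist-ChrX_Dom alone (0.127 ± 0.0267 SE, limma interaction, adjusted p = 0.043). Yipf6 (0.0928 ± 0.0241) and Igbp1 (0.112 ± 0.0266) each had an adjusted p of 0.0783 and Pin4 (0.131 ± 0.075) one of 0.607. In this line 1 of the 4 genes passed, against 0.813% of the 246 genes. Leaving out any of 14 of the 16 replicates took the call on Taf1 away (adjusted p of up to 0.152), as did a block for replicate number (adjusted p = 0.0527). In iXist-ChrX_Cast the changes were 0.0297 for Yipf6, 0.0487 for Igbp1, 0.0324 for Taf1 and 0.0772 for Pin4, with adjusted p of 0.275 to 0.464. No member passed there and 0% of the 399 genes did (0 by limma, with 63 at an unadjusted p below 0.05).

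At days 5 and 7 the KO minus WT difference was larger in A3 than in D5 and G6 for each of the 4 genes, by 0.068 for Yipf6, 0.0933 for Igbp1, 0.086 for Taf1 and 0.0762 for Pin4. The test of this difference between lines, chosen after the values were seen, passed for Igbp1 (SE 0.023, limma interaction, adjusted p = 0.049) and for 1.28% of the 235 genes in both lists. It did not pass for Yipf6 (limma adjusted p = 0.147), Taf1 (0.169) or Pin4 (0.494). For Igbp1 it was lost in 15 of 22 fits that left out a replicate. D5 and G6 were not told apart. D5 minus G6 was -0.0203 (95% interval -0.0593 to 0.0187) for Yipf6, -0.0217 (-0.0575 to 0.0141) for Igbp1, -0.0097 (-0.0691 to 0.0497) for Taf1 and -0.0243 (-0.0944 to 0.0458) for Pin4. The test passed for no member (limma adjusted p of 0.458 to 0.815), against 0.501% of the 399 genes.

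The late values are those that chose the genes. In WT of iXist-ChrX_Dom, Yipf6 was at 0.00292 and 0.00411 at days 15 and 21 and at 0 of 449 and 0 of 519 allelic fragments at days 35 and 52, which allows a ratio of up to 0.00668 and 0.00578 (3 fragments of the total, the limit used here for every count of 0). In A3 it was at 0.267, 0.198, 0.237 and 0.338 at days 15, 21, 35 and 52. Igbp1 was at 0.0166, 0.00641, 0.00615 and 0.00386 in WT and at 0.327, 0.232, 0.196 and 0.401 in A3 on the same days. Both genes in A3 were thus highest at days 15 and 52 and lower between them. Taf1 was at 0.0178, 0.0137, 0.00324 and 0.0012 in WT and at 0.234, 0.176, 0.153 and 0.233 in A3. Pin4 was at 0.13, 0 (of 30 allelic fragments, which allows up to 0.1), 0.0323 and 0.0208 in WT and at 0.525, 0.32, 0.35 and 0.41 in A3. The late mean of A3 was 51.9% of the uninduced ratio for Yipf6, 57.5% for Igbp1, 58.2% for Taf1 and 66.3% for Pin4, so that the order of the genes in raw ratio, in which Taf1 was lowest, was in part that of their starting values. At day 15 alone, where the WT and A3 libraries had like chromosome 6 shares, KO minus WT was 0.264 for Yipf6, 0.311 for Igbp1, 0.216 for Taf1 and 0.395 for Pin4, within the range over the other late days for 3 of the 4 genes (0.194 to 0.338, 0.189 to 0.397 and 0.15 to 0.232) and just above it for Pin4 (0.318 to 0.389).

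In late iXist-ChrX_Cast cells, Yipf6 was at 0.00702 in WT at day 15 and at 0 of 315 and 0 of 447 allelic fragments at days 21 and 35, which allows up to 0.00952 and 0.00671. It was at 0.173, 0.166 and 0.182 in D5 and at 0.166, 0.133 and 0.139 in G6. Igbp1 was at 0.0164, 0.0167 and 0.0556 in WT, at 0.193, 0.17 and 0.239 in D5 and at 0.139, 0.185 and 0.211 in G6. Taf1 was at 0.0415, 0.0276 and 0.0633 in WT, at 0.263, 0.241 and 0.353 in D5 and at 0.263, 0.179 and 0.275 in G6. Every late KO library lay above every late WT library of the line for these 3 genes, as it did for Pin4. Such separation was common: within days 15, 21 and 35, both KO libraries lay above the WT library for 60.4%, 42.2% and 52.1% of all genes. Pin4 was at 0.0323, 0 (of 44 allelic fragments, which allows up to 0.0682) and 0.06 in WT, at 0.152, 0.109 and 0.191 in D5 and at 0.143, 0.129 and 0.203 in G6. The late means kept 39% to 47.8% of the uninduced ratio in D5 and 32.8% to 41% in G6, against 0.525% to 7.96% in WT. In this line KO minus WT averaged 0.158, 0.16, 0.218 and 0.124 for Yipf6, Igbp1, Taf1 and Pin4, which ranked 6, 5, 1 and 14 of 395 genes. In iXist-ChrX_Dom the averages were 0.258, 0.281, 0.19 and 0.355, ranking 4, 3, 6 and 2 of 238. In raw ratio the difference of Taf1 was thus larger in iXist-ChrX_Cast and those of the other 3 genes larger in iXist-ChrX_Dom. Against its uninduced ratio Taf1 was at 58.2% in A3 and 2.62% in WT of iXist-ChrX_Dom, and at 47.8% in D5, 39.9% in G6 and 7.38% in WT of iXist-ChrX_Cast, so on that scale its difference was also larger in iXist-ChrX_Dom. The rule that chose the genes had no threshold, and genes outside the 4 ranked among them in both lines.

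Seen from the day at which KO and WT part for good, Yipf6 in A3 lay above WT from day 3, Igbp1 and Taf1 from day 5 and Pin4 from day 7. Since the late days chose the genes, this order is a description. Over the 238 genes of iXist-ChrX_Dom read on every day, 0.42%, 13.4% and 26.1% were apart from days 3, 5 and 7 onward. These shares include the members, and the 0.42% from day 3 is Yipf6 alone. Its day 3 gap was narrow, at 0.178 in the lower A3 replicate against 0.171 in the higher WT replicate. The limma test over days 2 and 3 did not pass for Yipf6 (adjusted p = 0.957). In iXist-ChrX_Cast all 4 genes were apart from day 15, as were 30.7% of 388 genes. From day 7 to the late days the KO ratios did not go on towards 0. High late KO ratios are favoured by the choice of the genes, so this too is a description. The counts that follow have no share over all genes beside them. The late A3 values lay above both day 7 replicates on 4 of 4 days for Yipf6 and on 2 of 4 days for each of Igbp1, Taf1 and Pin4. In D5 this held on 3 of 3 late days for all 4 genes, and in G6 on 2 of 3 days for Igbp1, Taf1 and Pin4 and on 1 of 3 for Yipf6.

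Trends among the late days are described without a test, because the same libraries chose the genes. The fitted slope of the ratio on log2 day over the 10 late KO libraries was 0.0215 per log2 unit of day for Yipf6, 0.0394 for Igbp1, 0.0203 for Taf1 and -0.00466 for Pin4. Without the A3 library of day 52 the slopes of Yipf6 and Igbp1 were -0.00973 and -0.0014.

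Silencing half-times were fitted as an exponential decay over the uninduced value and days 2 to 7. In WT of iXist-ChrX_Dom they were 1.96 days for Yipf6, 2.37 for Igbp1, 3.01 for Taf1 and 3.67 for Pin4, against a median of 1.53 over 246 genes, and ranked 71, 42, 18 and 10 from the slowest. In WT of iXist-ChrX_Cast they were 2.09, 2.26, 3.6 and 2.57 days, against a median of 1.34 over 399 genes, with ranks of 83, 63, 17 and 37. In these fits all 4 genes were slower than the median in WT of both lines. No uninduced WT library was analysed, so the fits take the start from the KO clones. Without it the half-times in WT were 1.26, 1.95, 1.85 and 3.09 days in iXist-ChrX_Dom (median 1.55) and 2.28, 2.06, 2.92 and 1.6 days in iXist-ChrX_Cast (median 1.34), and Yipf6 in iXist-ChrX_Dom was then faster than the median. Decay to 0 gave longer half-times in A3 (3.28, 4.7, 5.8 and 8.27 days), in D5 (2.64, 2.68, 3.88 and 3.12 days) and in G6 (3.03, 3.01, 3.86 and 3.53 days), without an error estimate, while the median over all genes was 1.57 days in A3, 1.38 in D5 and 1.19 in G6.

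When the decay was allowed to end at a level above 0, the A3 values were fitted with half-times of 1.58, 1.69, 2.48 and 1.38 days for Yipf6, Igbp1, Taf1 and Pin4, none of them longer than in WT under the same model (1.96, 2.37, 3.01 and 3.67 days), and with plateaus of 0.128, 0.18, 0.126 and 0.326. Leaving out each replicate in turn gave plateaus of 0.0894 to 0.141 for Yipf6, 0.14 to 0.202 for Igbp1 and 0.297 to 0.358 for Pin4. The plateau of Taf1 was poorly set (0.0212 to 0.15), and its half-time ran from 2.08 to 4.32 days, past the WT value. In WT of this line the plateau was 0 for all 4 genes. D5 and G6 had plateaus of 0.0884 and 0.119 for Yipf6 and 0.0724 and 0.113 for Igbp1, where WT had 0.031 and 0. For Taf1 and Pin4 they had plateaus of at most 0.0132. Leaving out a replicate moved that of Taf1 in G6 to as much as 0.0748 and that of Pin4 in D5 to as much as 0.0369. Half-times under this model in D5 and G6 were 1.46 and 1.23 days for Yipf6 (WT 1.73). They were 1.78 and 1.43 days for Igbp1 (WT 2.26), shorter than in WT for both genes. For Taf1 they were longer, at 3.88 and 3.8 days (WT 3.6), as for Pin4, at 2.92 and 3.53 days (WT 2.57). With 8 replicates of a KO clone and its uninduced value behind each fit, both models remain descriptions.

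**Figure D3:**
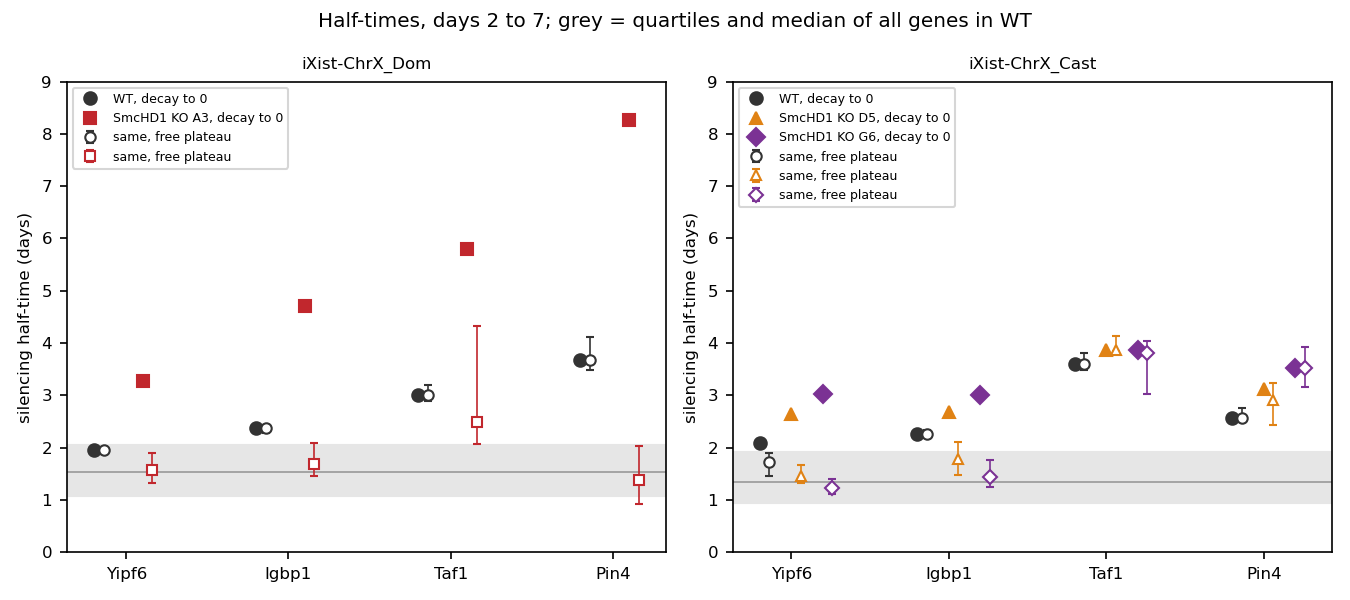
Silencing half-times in days of Yipf6, Igbp1, Taf1 and Pin4 in iXist-ChrX_Dom (left) and iXist-ChrX_Cast (right), for WT (black), A3 (red), D5 (orange) and G6 (purple). Filled symbols are fits that decay to 0, open symbols are fits with a free plateau and the range with each replicate left out, and grey shows the quartiles and median of all genes in WT. In A3 the filled symbols lie at 3.28 to 8.27 days and the open symbols at 1.38 to 2.48 days.

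Total chromatin RNA of the 4 genes did not differ detectably between genotypes at days 2 to 7. With edgeR's quasi-likelihood test, the log2 fold change of A3 over WT was 0.12 ± 0.10 (SE) for Yipf6, 0.21 ± 0.09 for Igbp1, -0.01 ± 0.09 for Taf1 and 0.11 ± 0.13 for Pin4, with adjusted p of 0.287 to 0.967. None of the 4 passed, against 124 of 15443 genes (0.803%). In iXist-ChrX_Cast the log2 fold changes were 0.06 ± 0.06, 0.03 ± 0.07, -0.04 ± 0.09 and 0.06 ± 0.08, with adjusted p of 0.855 to 0.956, and none of the 4 passed, against 59 of 15499 genes (0.381%). The widest 95% interval, that of Pin4 in iXist-ChrX_Dom, ran from -0.17 to 0.39.

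Levels also differed between uninduced ES cells and late cells in every clone, groups that differ in Xist induction as well as in differentiation. In A3, Xi fragments of Taf1 averaged 24.7 RPM uninduced and 5.88 RPM at late days, and its Xa fragments 47.3 and 24.2 RPM. Taf1 was at 409 and 451 RPM in uninduced A3 and at 145 to 200 RPM in late A3, and at 167 to 210 RPM in late WT of that line. Yipf6 was at 106 and 92.6 RPM in uninduced A3 and at 28.6 to 48.5 RPM in late A3, against 27.6 to 36.9 RPM in late WT. These levels are RPM of the same gene and do not compare genes of different length. In bulk cells, fewer cells that express a gene and less RNA per cell cannot be told apart.

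At late days the RNA of the 4 genes, described without a test, was split between alleles as follows. In iXist-ChrX_Dom, fragments from the Xi allele of Yipf6 were 0 to 0.0754 RPM in the 4 WT libraries and 7.67, 4.1, 3.99 and 7.71 RPM in A3, while those from the Xa allele averaged 18.7 RPM in WT and 16.4 RPM in A3. Xi fragments of Igbp1 were 0.0729 to 0.288 RPM in WT and 5.05 to 8.78 RPM in A3, and its Xa fragments averaged 20.4 and 18.7 RPM. Xi fragments of Taf1 were 0.0364 to 0.566 RPM in WT and 5.23 to 6.81 RPM in A3, with 32.4 and 24.2 RPM from Xa. Total RNA in A3 was 1.17-fold that of WT for Yipf6, 1.25-fold for Igbp1, 0.979-fold for Taf1 and 1.25-fold for Pin4 by library totals. For Taf1 the direction changed with the scaling, being -0.03 on the log2 scale by library totals and 0.10 by TMM. The A3 and WT ranges overlapped for each gene.

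In late iXist-ChrX_Cast cells, total RNA in KO was 1.58-fold that of WT for Yipf6, 1.26-fold for Igbp1, 1.23-fold for Taf1 and 1.08-fold for Pin4. For Igbp1, all 6 KO libraries (48 to 62.5 RPM) lay above the 3 WT libraries (42.1 to 45.9 RPM). For Yipf6 and Taf1, 5 of 6 did, and for Pin4 3 of 6. The share of all genes separated in this way is not given here, so these counts only describe the 4 genes. Xi fragments of Yipf6 averaged 3.94 RPM in KO and 0.0284 RPM in WT, but its Xa fragments were also higher, at 21 against 15 RPM, so the difference in total RNA was not one of the Xi allele alone. For Taf1 the Xi fragments averaged 6.24 against 0.87 RPM and the Xa fragments 17.7 against 19.2 RPM. On these library totals the median log2 difference over genes with a mean of at least 1 RPM was -0.08 in iXist-ChrX_Cast and -0.10 in iXist-ChrX_Dom. Each log2 difference of the 4 genes lay above that median, on days that chose the genes, so their place above it is no finding.

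**Figure D4:**
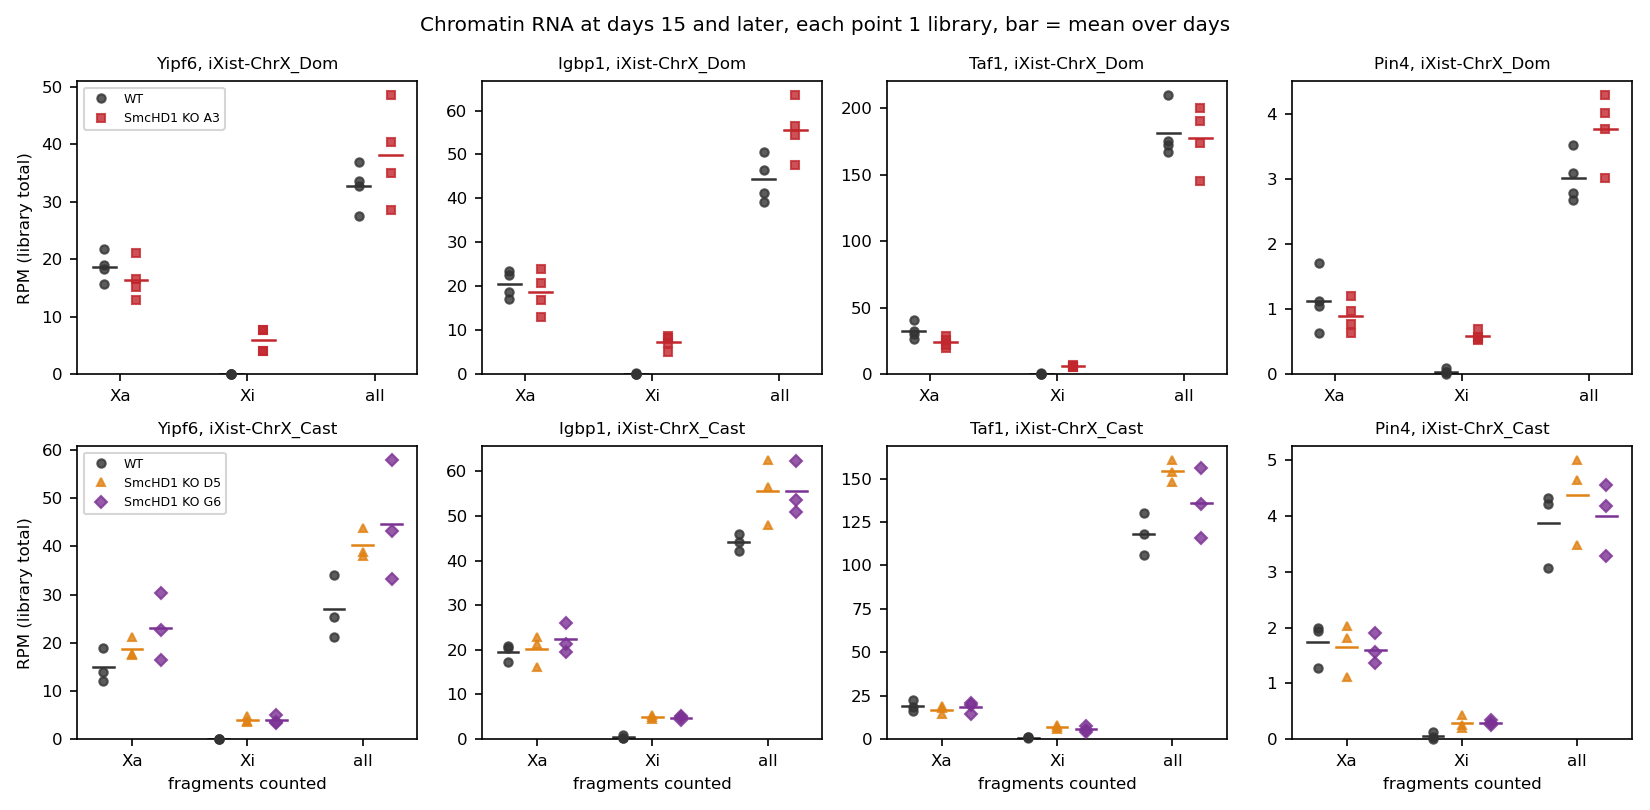
Chromatin RNA of Yipf6, Igbp1, Taf1 and Pin4 at days 15 and later in RPM, for fragments assigned to the active X (Xa), to the inactive X (Xi) and for all fragments, including those with no allele. Each point is the library of 1 late day and bars are means over days, for WT (black), A3 (red), D5 (orange) and G6 (purple). Xi fragments of Yipf6 are at most 0.0852 RPM in WT and at least 3.28 RPM in every KO library.

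The neighbours of the 4 genes varied widely. Of 52 counted genes that start in the 5 Mb of the X from position 98 Mb, 24 others were in the iXist-ChrX_Dom list. At days 5 and 7 their KO minus WT differences ranged from -0.00588 to 0.107 with a median of 0.0174 (0.00581 over all 246 genes), and 1 of the 24, the ribosomal protein gene Rps4x, passed the limma test (0.051, adjusted p = 0.034), against the 7.32% given above. The highest was that of Ogt, the O-GlcNAc transferase gene at chrX:101640050-101684351 just past Taf1 (0.107, limma adjusted p = 0.0566). Stard8, the next listed gene past Yipf6, had a difference of 0.00802 and Nhsl2, between Ogt and Pin4, had one of 0.000536. In iXist-ChrX_Cast none of 23 others passed, their range was -0.00499 to 0.0346, and 4 of them lay above Taf1, the lowest member. Late differences of the neighbours ran from -0.00159 to 0.181 against A3, and from -0.106 to 0.11 against D5 and G6. Since the members were chosen on late differences, their rank among neighbours there is no finding. Besides Ogt (0.181), late A3 differences reached 0.159 for Awat2, 0.131 for Ercc6l, 0.128 for Kif4 and 0.114 for Itgb1bp2, genes named after their values were seen.

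Likeness was measured as Pearson's r between a gene's KO minus WT profile over 22 points (8 days of A3 and 7 days each of D5 and G6) and the mean profile of the 4 genes, among 226 genes with all values. Points of a line share WT replicates and the late points chose the 4 genes, so r is given as a description. The median r over the other genes was 0.351. The most alike were Ogt (0.938), Zfx, an X-linked zinc finger transcription factor gene (0.933), Hcfc1, the gene of a transcriptional coregulator (0.925), Nkap (0.922) and Utp14a, a gene of ribosomal RNA processing (0.915). The late differences of these 5 genes were 0.102 to 0.226 in A3 and 0.0626 to 0.147 in D5 and G6. All lay below those of Yipf6 and Igbp1, but late differences chose the members. Nkap (0.226 and 0.147) lay above Taf1 in A3 (0.19) and above Pin4 in D5 and G6 (0.124). At days 5 and 7 the A3 differences of the 5 genes were 0.107, 0.0453, 0.0474, 0.0807 and 0.027. Among them only Hcfc1 passed the limma test (adjusted p = 0.0442). Among the 4 members themselves, Yipf6 and Igbp1 had the most similar profiles (r = 0.973) and Taf1 and Pin4 the least (r = 0.693).

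No gene of the families that the members belong to or work with passed the test of total RNA at days 2 to 7, where 0.803% and 0.381% of all genes did, so that lists this short are read with little weight. Among subunits of TFIID, the complex of Taf1, 0 of 12 tested passed in either direction in either line by edgeR (2 and 0 at an unadjusted p below 0.05 in iXist-ChrX_Dom and iXist-ChrX_Cast), with median log2 fold changes of 0.02 and 0.00, against 0.01 and 0.01 over all genes. The highest value was that of Taf9b in iXist-ChrX_Dom, 0.40 ± 0.16 (SE, edgeR adjusted p = 0.275). Among phosphatase genes and partners of Igbp1, 0 of 8 passed in either line (1 and 1 unadjusted), with medians of 0.07 and 0.05. The lowest adjusted p there was that of Ppp2cb, a PP2A catalytic subunit gene, at 0.158 (log2 fold change 0.20 ± 0.06 SE) in iXist-ChrX_Dom. In iXist-ChrX_Cast its log2 fold change was -0.06. Among genes of the YIP1 family, 0 of 7 passed in iXist-ChrX_Dom and 0 of 8 in iXist-ChrX_Cast (0 and 1 unadjusted), with medians of -0.04 and -0.09. Igbp1b, an intronless copy of Igbp1 that could share reads with it, was read at 0 to 0.227 RPM.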

How the data were processed

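ChrRNA-seq libraries were sequenced as paired ends. Per the labels and the study's methods, the authors removed rRNA reads with Bowtie2 (2.3.2), aligned to mm10 with STAR (2.4.2a), split fragments by parental allele with SNPsplit and counted them, by strand and over whole transcripts, with featureCounts. They deposited raw counts per gene (all, Cast and Dom fragments) and tables of the allelic ratio, a fraction from 0 to 1, over genes that passed their coverage filter. For iXist-ChrX_Cast the authors' ratio equalled that of the deposited counts in 18337 compared values. The 26 value columns of the iXist-ChrX_Dom ratio table are headed with library names of the other line and were left out, so ratios of iXist-ChrX_Dom were computed here from the deposited allelic counts, over the genes that table lists. Genes with too few SNPs lack a ratio, and in iXist-ChrX_Dom only X genes proximal to Xist are informative.

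The members and gene lists were chosen with earlier results of these data known. R1 and R2 of a replicate were averaged (ratios) or summed (counts). Ratios were tested with limma (3.58.1), and counts with edgeR (4.0.16, TMM), in R (4.3.3), with day as a factor and Benjamini-Hochberg adjustment over all genes tested. A call is an adjusted p below 0.05. DESeq2 (1.42.0) was an alternative. Scripts were tested on simulated data. The study describes the early days as replicate time courses. Which libraries of WT and KO shared one, and whether R1 and R2 were separate cultures, is not given in the labels, so p-values measure the spread between these samples. Named genes were the 4 members, the 5 most alike in profile, X neighbours where a comparison needed one, and at most 4 per family list.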

Additional observations from a re-analysis of the deposited data

Results flagged for a closer look

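A pair of results differed between groups by a test of the difference itself. The KO minus WT difference of Taf1 in iXist-ChrX_Dom was larger at days 5 and 7 than at days 2 and 3, by 0.127 ± 0.0267 (SE, limma interaction, adjusted p = 0.043). A block for replicate number ended the call (adjusted p = 0.0527). All 4 A3 replicates of days 5 and 7 lay above the WT replicates of their day, while at days 2 and 3 both A3 replicates lay below both WT replicates. The KO minus WT difference of Igbp1 at days 5 and 7 was larger in iXist-ChrX_Dom than in iXist-ChrX_Cast, by 0.0933 ± 0.023 (SE, limma interaction, adjusted p = 0.049). This second test was chosen after the values were seen. No group held enough replicates for a search for single outlying samples.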

How the results depend on the processing

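Over the tests of the 4 genes, 896 of 980 alternatives kept the direction and the side of the threshold. Another 43 lost a call, 4 gained one and 37 changed sign. Only results with a call could lose one, and most alternatives belong to results without a call. With a replicate left out, Yipf6 and Igbp1 at days 5 and 7 in iXist-ChrX_Dom each lost the call in 2 of 8 fits. Taf1 lost it in 6 of 8 there and in 14 of 16 for the change between periods. Igbp1 lost it in 15 of 22 for the line difference. The total also covers the late slopes, whose libraries chose the genes. Counts below are genes called unless members are named, and the cause of a change was not tested. With a list rebuilt from the counts (X-linked genes with at least 10 allelic fragments in over 80% of WT libraries) in place of the authors' list, iXist-ChrX_Dom had 1 call at days 2 and 3 and 7 at days 5 and 7. On the log2 odds scale the change between periods had 10 calls (3 members) in iXist-ChrX_Dom and 5 in iXist-ChrX_Cast. On that scale days 5 and 7 in iXist-ChrX_Cast had 10, D5 against G6 had 0 and the line difference had 1 (0 members). With R1 and R2 as separate replicates, days 5 and 7 in iXist-ChrX_Cast had 1 call and D5 against G6 had 5. For days 5 and 7 in iXist-ChrX_Cast, edgeR on allelic counts gave 20 calls, D5 alone 28 and G6 alone 0. Total RNA had 559 calls with DESeq2 in iXist-ChrX_Dom. In iXist-ChrX_Cast it had 1285 with D5 alone, 273 with G6 alone, 241 with DESeq2, 114 by library totals and 37 without a filter.

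Replicate numbers did not pair the samples on every day in iXist-ChrX_Cast. The 2 numbers of a day gave the same correlation of deviations, so each day is 1 case. For the ratio this correlation was above 0.1 at day 2 in D5 (0.194) and on no day in G6. For total RNA it was above 0.1 at days 2 and 7 in D5 (0.676 and 0.14) and in G6 (0.78 and 0.125). At days 3 and 5 it was below 0 in both clones. With replicate number as a block, iXist-ChrX_Dom had 9 calls at days 5 and 7 (2 members, without Taf1 at adjusted p = 0.0538) and 0 (0 members) for the change between periods. The block gave 17 calls (2 members, Yipf6 and Igbp1) at days 5 and 7 in iXist-ChrX_Cast, and 249 for total RNA, with Taf1 at 0.0301. In iXist-ChrX_Dom, total RNA of same-numbered samples deviated in opposite directions (median correlation -0.593), and crossed pairing, chosen after seeing the data, gave 540 calls for total RNA, 12 for days 5 and 7 and 2 for the change between periods.

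Signs changed only for estimates that had passed no test. Pin4 at days 2 and 3 in iXist-ChrX_Dom was -3.31673e-05 on the log2 odds scale and -0.078 by edgeR, and Taf1 in iXist-ChrX_Cast was 0.00224 with D5 alone. The late KO slope of Pin4 was 0.0412 on the log2 odds scale, 0.0827 from day 21 and 8.5446e-05 per day. Total RNA in iXist-ChrX_Cast was -0.0479 for Igbp1 with D5 alone, and 0.0262 for Taf1 and -0.0452 for Pin4 with G6 alone. Late total RNA of Taf1 in iXist-ChrX_Dom, which had no test, was 0.0964 by TMM, 0.0575 without day 21 and 0.0175 without day 52.

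Leaving out each replicate in turn gave 0 to 14 calls (0 to 3 members) at days 5 and 7 in iXist-ChrX_Dom, 1 to 8 in iXist-ChrX_Cast, 0 to 2 (0 to 1 members) and 0 to 1 for the change between periods, 1 to 9 for D5 against G6, 1 to 6 (0 to 1 members) for the line difference, and 9 to 251 and 22 to 69 for total RNA. Signs turned within these ranges: Pin4 at days 2 and 3 in iXist-ChrX_Dom, -0.0466 to 0.0309, and Igbp1 in iXist-ChrX_Cast, -0.00968 to 0.00444. Pin4 and Taf1 in D5 against G6 ranged from -0.0466 to 0.00149 and from -0.0244 to 0.00182. Late KO slopes ranged from -0.00973 to 0.0342 for Yipf6, -0.0014 to 0.0752 for Igbp1 and -0.0217 to 0.0541 for Pin4, and KO minus WT slopes from -0.00664 to 0.0373, -0.00679 to 0.0698 and -0.0267 to 0.0780. Total RNA of Taf1 ranged from -0.0575 to 0.0333 and from -0.0618 to 0.00621. Depth limits Pin4 most.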
